A study of Mus musculus with 6 samples.

Results

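The motile cilium genes described here are 36 genes of the axoneme, the moving core of a beating cilium, and of its transcriptional control, taken by symbol from the 32285 genes of the deposited tables. All 36 were found, each in 1 row. They comprise 8 inner dynein arm heavy chains (Dnah1, Dnah2, Dnah3, Dnah6, Dnah7a, Dnah7b, Dnah10 and Dnah12), 3 outer dynein arm heavy chains (Dnah5, Dnah9 and Dnah11) and 9 genes of the central apparatus (Spag16, Spag17, Hydin, Cfap46, Cfap47, Cfap54, Cfap65, Cfap69 and Cfap70). A further 9 belong to the radial spokes, ruler, nexin link, tether or doublet wall (Rsph1, Rsph4a, Cfap61, Ccdc39, Ccdc40, Drc1, Cfap43, Cfap44 and Cfap52), 3 are transcription factors (Foxj1, Rfx2 and Rfx3), and 4 are linked to cilia with no role stated here (Cfap299, Tmem212, Wdr49 and Rgs22). The libraries were 6 droplet RNA libraries of brain tissue from the septal area of wild type mice, in which each RNA molecule carries a unique molecular identifier (UMI). They form 1 group, numbered replicates 1 to 6. The sources used here state no treatment, age or number of animals, so p-values measure the spread between libraries, which may be technical. The title speaks of nuclei and the protocol of cells, and the word nuclei is used here.

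Ependymal cells line the cerebral ventricles, including the wall that faces the septum, and carry tufts of motile cilia that move cerebrospinal fluid. In the axoneme, dynein heavy chains are the motor proteins that slide neighbouring microtubule doublets, the central apparatus and the radial spokes regulate the stroke, and the nexin link turns sliding into bending. FOXJ1 is the master regulator of the motile cilium programme, and RFX2 and RFX3 bind the X-box motif in front of many ciliary genes. Neurons and most other glia carry at most a single primary cilium, which has no dynein arms.

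The 6 libraries held 70183544 to 95175260 UMIs. Of 55537 barcodes, 54623 had 500 or more detected genes and were used, and libraries shared at most 0.433% of their barcodes. Ependymal nuclei were taken as those with 5 or more Dnah12 UMIs, which gave 3050 nuclei (300 to 676 per library, or 4.10 to 6.28%). Because Dnah12 chose these nuclei, its own level is given without a test. Other classes were gated by UMIs of marker panels and gave 7336 astrocyte, 7889 oligodendrocyte, 1140 microglia, 876 endothelial and 501 mural nuclei. In all, 29121 of the 54623 nuclei fell in no class under the gates chosen first, so the classes do not cover the tissue. The gates chosen first let neurons into the oligodendrocyte precursor (OPC) class, in which the neuronal gene Snap25 stood at 406 to 482 counts per 1e+06 UMIs (CPM), and left the glutamatergic class empty. Revised gates, chosen after seeing the data, gave 2245 OPC, 8013 GABAergic and 188 glutamatergic nuclei, with Snap25 at 233 to 274 CPM in OPCs. Levels in these 3 classes are from the revised gates unless stated.

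The gated nuclei carried ependymal genes that the gate did not use. A panel of 18 ependymal genes outside the 36 was present in 98.3 to 99.7% of them per library (3029 of 3050). Ak7, Spef2, Tekt1 and Ccdc146 of this panel belong to the other cilium gene lists below. The panel is therefore not independent of the cilium programme by which the nuclei were chosen. Its summed level was 8308 to 9911 CPM, against 249 to 343 CPM in astrocytes and 207 to 246 CPM in oligodendrocytes. The choroid plexus panel (Ttr, Kl, Clic6, Folr1 and Otx2) summed to 94.7 to 126.9 CPM in them, above the 51.2 to 54.9 CPM of astrocytes and the 8.93 to 14.3 CPM of oligodendrocytes, and 44 gated nuclei (0.305 to 2.91% per library) carried it. Of its genes, Ttr was at 0 to 0.486 CPM and Kl at 0.261 to 1.93 CPM. Nearly all of the sum thus lay in Clic6, Folr1 and Otx2, whose single levels are not given here. The tanycyte panel summed to 37.8 to 64.8 CPM, against 50.9 to 69.9 CPM in astrocytes and 13.8 to 31.5 CPM in oligodendrocytes, and 3 gated nuclei carried it. Rax was at 0 to 0.276 CPM, so that nearly all of this sum lay in Col23a1, Crym and Fndc3c1. The part of such cells in the levels was not tested. The astrocyte panel was present in 17.0 to 32.3% of the gated nuclei per library, the microglia panel in 7.25 to 13% and the GABAergic panel in 4.72 to 6.66%. No doublet caller was run. Leaving out the 294 ependymal nuclei (9.64%) that held more than 1/4 of their ependymal panel sum in another panel left 2756. In these the mean CPM of the 36 genes was 1.25 to 1.37 times as high (median 1.35). They held 41402 of the 45053 Dnah12 UMIs of the gate, while mean Dnah12 went from 2534 to 3431 CPM. The 294 thus held a larger share of all UMIs than of nuclei. Snap25 stood at 225 to 310 CPM in all gated nuclei, against 86.4 to 119 in astrocytes and 233 to 274 in the revised OPCs. Levels and tests below use all 3050 gated nuclei unless stated. The 294 are called mixed barcodes below by this rule alone. Aqp4 of the astrocyte panel stood at 80.4 to 118 CPM in gated nuclei and 146 to 185 in astrocytes, and Slc1a2, outside it, at 347 to 489 and 5331 to 6053. The part of ependymal expression in the panel was not tested.

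Around the threshold, the summed level of the other 35 genes was higher the more Dnah12 UMIs a nucleus had. These values describe the gate and carry no test. In the 430 nuclei with 3 to 4 Dnah12 UMIs the 35 genes summed to 3919, 7184 and 7986 CPM in the lowest, median and highest library. In the 387 nuclei with 5 to 6 they summed to 9440, 17228 and 21811 CPM, and in the 2033 with 10 or more to 26860, 29783 and 30908 CPM. In the 47855 nuclei without a Dnah12 UMI the sum was 1016 to 1074 CPM.

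Together the 36 genes made up 2.60 to 3.08% of the UMIs of ependymal nuclei and 0.184 to 0.228% of those of all nuclei. Of all their UMIs, 43.6 to 52.8% per library lay in the ependymal nuclei. The share differed widely from gene to gene. It was highest for Dnah12, which chose the nuclei (median 89.9%), followed by Tmem212 (86%), Cfap299 (85%), Wdr49 (84.8%), Rgs22 (84.6%) and Spag17 (83.6%). It was lowest for Rfx3, with 7.36, 10.1 and 10.8% in the lowest, median and highest library, or 18233 of 187862 UMIs. Next from below came Drc1 (23%), Ccdc39 (23.5%), Cfap69 (26%), Dnah7b (26.9%) and Dnah1 (27.5%). Many further genes also had most of their UMIs outside the gate, from Rfx2 (36.5%) and Dnah9 (37.3%) to Spag16 (47.4%) and Cfap44 (49.3%). The plot of mean levels by class shows both kinds of gene.

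**Figure D1:**
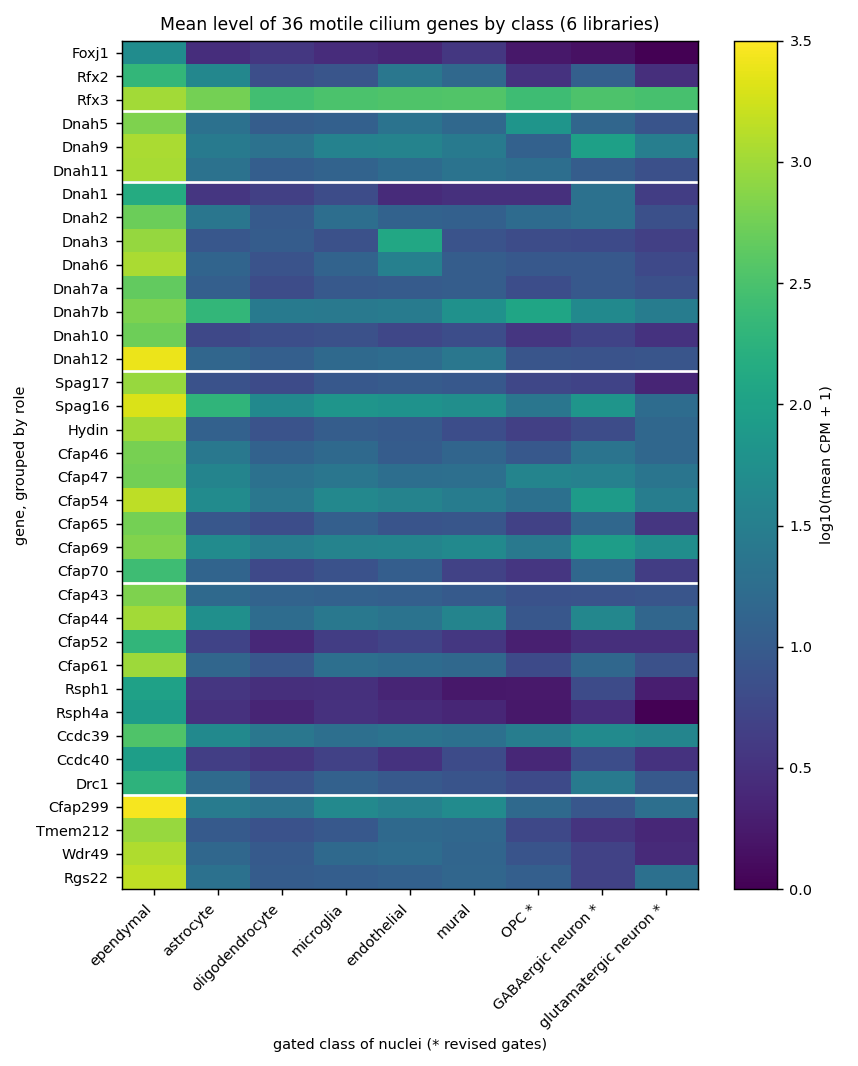
Heat map of the mean level of the 36 motile cilium genes (rows, by role) in 9 nucleus classes (columns), as log10 of the mean CPM over 6 libraries plus 1; an asterisk marks the classes taken with the revised gates. Brighter means higher. The ependymal column is the brightest in every row, and Rfx3 is the brightest row in every other class.

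The 3 transcription factors stood at very different levels in ependymal nuclei. Foxj1 measured 35.4, 51.2 and 59.5 CPM in the lowest, median and highest library. Rfx2 measured 178, 202 and 226 CPM, and Rfx3 measured 944, 1018 and 1137 CPM. The ranges of the 3 genes did not overlap, but these are counts per gene over spans of unequal length and do not rank the genes by RNA molecules made. Foxj1 was the lowest of the 36 genes and was detected in 23.3% ± 4.2 (SD, n = 6) of ependymal nuclei, against 92.8% for the median gene.

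RefSeq promoters, taken as 250 bases before to 50 bases after the gene start, were matched for 28 of the 36 genes. The complete X-box was searched on both strands as GTNNCC, then 3 or 2 bases of any kind, then GNAAC, and an arm alone as GTTGCC, which can overlap the complete forms. Either complete form was present in 5 of the 28 promoters (17.9%) and in 3.68% of all 32851 promoters of the table. GTTGCC was present in 10 of 28 (35.7%) and in 12.5% of all. The forkhead motif GTAAACA was present in 2 (Wdr49 and Cfap43, 7.14%) and in 3.65% of all. A match describes the letters in this window and is not evidence of binding. The stretches of 80 bases around the 5 complete matches are shown because they carry the motif that RFX proteins recognise, in capitals, 5′ to 3′ on the strand of the gene, in GRCm38.p6 coordinates:
Spag16, chr1:69826834-69826913, plus strand: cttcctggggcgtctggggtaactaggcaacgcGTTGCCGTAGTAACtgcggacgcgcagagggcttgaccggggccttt
Cfap61, chr2:145934743-145934822, plus strand: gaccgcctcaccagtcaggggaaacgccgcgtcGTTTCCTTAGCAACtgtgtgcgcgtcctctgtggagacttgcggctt
Hydin, chr8:110266923-110267002, plus strand: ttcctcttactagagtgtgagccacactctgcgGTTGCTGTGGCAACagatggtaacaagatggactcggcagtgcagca
Dnah9, chr11:66168588-66168667, minus strand: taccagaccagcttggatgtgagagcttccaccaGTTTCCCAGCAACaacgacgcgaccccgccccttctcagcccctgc
Cfap44, chr16:44394739-44394818, plus strand: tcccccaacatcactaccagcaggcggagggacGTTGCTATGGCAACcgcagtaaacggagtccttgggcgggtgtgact
The matches start at -103 in Spag16, -8 in Cfap61, -21 in Hydin, -82 in Dnah9 and -27 in Cfap44, counted from the gene start. In Hydin and Cfap44 the pattern matched on the opposite strand. These 5 genes encode central apparatus, spoke, outer arm and tether proteins, and their median ependymal levels ran from 989 CPM (Cfap61) to 1985 CPM (Spag16).

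The dynein heavy chains covered a wide range of levels in ependymal nuclei. Dnah5, whose protein is found along the whole outer arm row, measured 624.7, 681 and 720 CPM. Dnah9 measured 1060, 1114 and 1190 CPM and Dnah11 978, 1119 and 1214 CPM, so the ranges of Dnah9 and Dnah11 overlapped and both lay above that of Dnah5. Inner arm levels went from 120, 143 and 158 CPM for Dnah1 to 2324, 2565 and 2676 CPM for Dnah12, without overlap. Between them lay Dnah7a (410 to 472 CPM), Dnah2 (445 to 545), Dnah10 (467 to 564), Dnah7b (553 to 709), Dnah3 (847 to 913) and Dnah6 (964 to 1200). Dnah7a, Dnah2 and Dnah10 formed neighbours whose ranges overlapped.

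Central apparatus genes were led by Spag16, with 1685, 1985 and 2216 CPM, and Cfap54, with 1231, 1428 and 1495 CPM. Hydin, the gene that gives hydrocephalus in mice when mutated, measured 882, 1031 and 1065 CPM, and Spag17 measured 796, 919 and 957 CPM. Cfap69 (628 to 719 CPM), Cfap46 (554 to 651), Cfap65 (538 to 632) and Cfap47 (483 to 635) overlapped one another in part, and Cfap70 was the lowest of this role with 238 to 291 CPM.

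The spoke, ruler and link genes included the least counted structural genes. Rsph4a, a spoke head protein, measured 76.8, 85.4 and 88.7 CPM. Rsph1 measured 90.3, 92.7 and 122.8 CPM and Ccdc40, the partner of Ccdc39 in the molecular ruler, 77.3, 92.1 and 102 CPM, so these 3 overlapped. Ccdc39 itself was higher, with 315 to 366 CPM. Drc1 of the nexin link measured 146 to 209 CPM, Cfap52 163 to 230, the tether genes Cfap43 and Cfap44 611 to 722 and 940 to 1143, and Cfap61 of the spokes 811 to 999. Among the 4 genes with no role stated, Cfap299 was the highest of all 36, with 2550, 2814 and 3207 CPM, and Rgs22, Wdr49 and Tmem212 measured 1343 to 1569, 1031 to 1325 and 794 to 971 CPM.

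**Figure D2:**
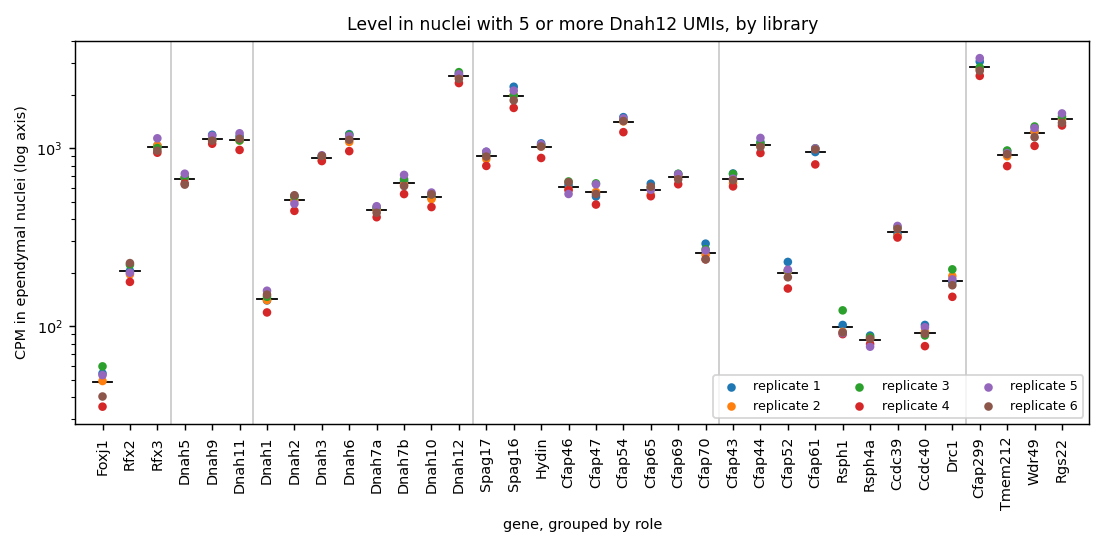
CPM (log axis) of each of the 36 genes in ependymal nuclei, with 1 point per library (6 libraries) and a bar at the mean. Levels ran from Foxj1 at 48.7 ± 9.14 CPM to Cfap299 at 2864 ± 239 CPM (mean ± SD, n = 6), and libraries lay close together for each gene.

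Long genes gave more UMIs. Across the 36 genes, ependymal CPM had a Spearman correlation of 0.706 with gene span in the GENCODE annotation (4.70 to 898 kb, median 152 kb), where genes share libraries and depth. On the scale of CPM per kb of span the order changed. Tmem212 led with 30.2 CPM per kb, followed by Cfap65 (17.4), Dnah12 (12.8), Cfap44 (11.9), Rgs22 (11.1), Ccdc39 (10.7) and Foxj1 (10.4). Foxj1, the lowest gene by CPM, was thus among the 7 highest per kb. Dnah7b (2.08) and Dnah7a (1.45) were at the low end. The sources used here do not state the treatment of intron reads, and span is a fair divisor only if these were counted.

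Replicate 4 was the lowest library for 32 of the 36 genes in ependymal nuclei, and replicates 5 and 6 for 2 each. Its ependymal nuclei also had the lowest median UMI count, 3143 against up to 4614 in the others. With the 294 nuclei that held another panel left out (11.5% of the gated nuclei of replicate 4 and 8.55 to 9.89% of those of the others), replicate 4 was lowest for 2 genes and highest for 7, and replicate 2 was lowest for 22. The part of mixed barcodes in the order of the libraries was not otherwise tested.

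Per nucleus, the genes were detected together. After thinning each nucleus to 2000 UMIs, which left out 190 of 3050 ependymal and 677 of 7889 oligodendrocyte nuclei as too shallow, the median ependymal nucleus had UMIs of 25 to 26 of the 35 genes other than Dnah12, depending on the library. The median astrocyte had 2 and the median oligodendrocyte 1. Of ependymal nuclei, 96.6 to 99.2% had 5 or more of the 35, against 6.96 to 9.63% of astrocytes and 0.292 to 1.24% of oligodendrocytes.

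By gene, the thinned share of ependymal nuclei with a UMI was 95.9% ± 1.1 for Cfap299, 87.2% ± 1.8 for Rfx3, 76.5% ± 3 for Dnah7b, 40.5% ± 3.2 for Rfx2, 18.9% ± 1.1 for Rsph4a and 11.8% ± 2.1 for Foxj1 (SD, n = 6). The median over the genes was 76.6% thinned and 92.8% as deposited. In oligodendrocytes, which should lack axonemal genes, the median share was 1.64% thinned and 3.33% as deposited, with median depths of 2870.5 to 4180 UMIs against 3143 to 4614 in ependymal nuclei. The astrocyte medians were 2.82 and 5.09%. Rfx3 stood apart in both, with a thinned share of 38.5% ± 2.3 in oligodendrocytes and 64.6% ± 1.7 in astrocytes, and so did Dnah7b (31.3% ± 1.4) and Spag16 (23.1% ± 1.9) in astrocytes.

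**Figure D3:**
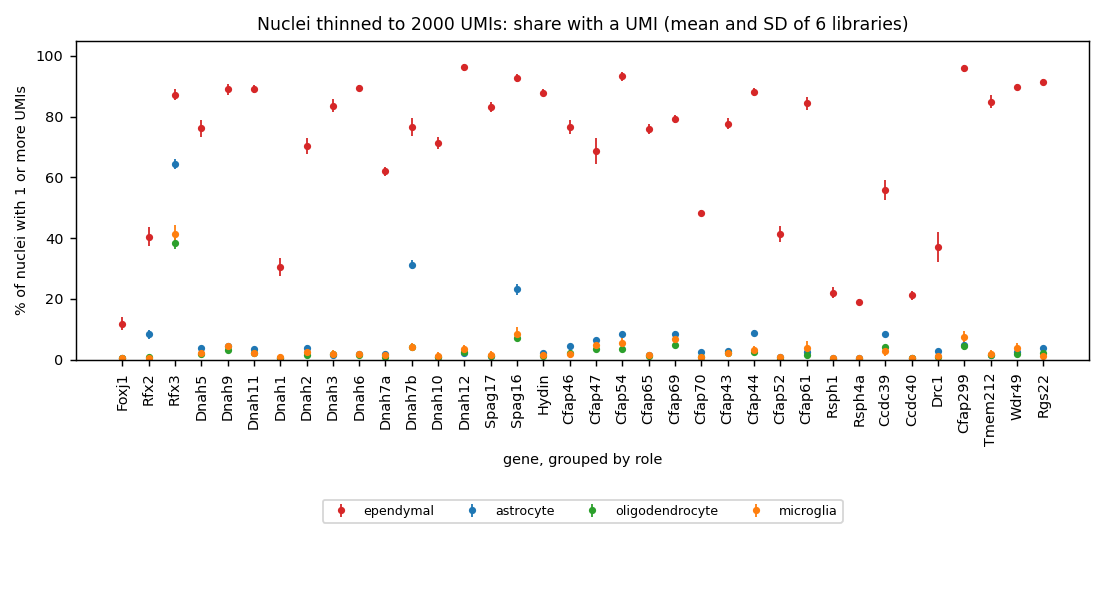
Share of nuclei (percent) with 1 or more UMIs of each gene after thinning to 2000 UMIs, in ependymal, astrocyte, oligodendrocyte and microglia nuclei; points are means over 6 libraries and bars are SD. The ependymal point is the highest for every gene, and Rfx3 has a high share in all 4 classes.

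Relative to all UMIs, ependymal nuclei had a higher level of every tested gene than astrocytes. Dnah12 chose these nuclei, and the summed level of the other 35 genes rose with its UMIs. The direction of the tests therefore follows in part from the gate. All 35 genes other than Dnah12 passed edgeR's quasi-likelihood test (adjusted p under 0.05 over 15284 genes), each higher in ependymal nuclei in 6 of 6 libraries, where 34.9% of all genes tested passed in this direction. The median log2 difference was 5.13, against -0.03 over all genes. By role the median was 5.63 for 7 inner arm genes, 5.34 for 3 outer arm genes, 4.52 for 9 central apparatus genes, 5.12 for 9 spoke, ruler and link genes, 6.44 for the 4 genes with no role stated and 2.20 for the 3 transcription factors. The summed level of the 35 genes was 23649, 26888 and 28164 CPM in ependymal nuclei and 1477, 1565 and 1667 CPM in astrocytes, without overlap.

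At the top, Spag17 was higher by 6.94 ± 0.11 (log2 ± SE, edgeR adjusted p = 2.11e-53), Dnah3 by 6.68 ± 0.12 and Cfap299 by 6.58 ± 0.14. Foxj1 was higher by 4.55 ± 0.17 (edgeR adjusted p = 3.64e-38), with 35.4 to 59.5 CPM against 1.49 to 2.68 CPM in astrocytes. At the other end, Rfx3 was higher by only 0.68 ± 0.058 (edgeR adjusted p = 1.55e-17). Its astrocyte level was 552, 583 and 597 CPM, below every ependymal library. When ependymal nuclei were chosen with the panel of 18 other genes instead of Dnah12, the Rfx3 difference was 0.12 and no longer passed (edgeR adjusted p = 0.0639). Over the 35 genes, the median level in astrocytes was then 4.83% of the ependymal level, against 2.51% with the Dnah12 gate. The change of gate thus moved the genes as a set and not Rfx3 alone, and its cause was not tested. With mixed barcodes left out the Rfx3 difference was 1.07. Dnah7b (1.48 ± 0.062), Rfx2 (2.20 ± 0.075), Ccdc39 (2.79 ± 0.07) and Spag16 (3.22 ± 0.11) followed Rfx3 from below.

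Against the other classes the same 35 genes were tested with the same ependymal nuclei, so these comparisons are not independent of the first. Against oligodendrocytes 35 of 35 passed as higher in ependymal nuclei (38.2% of all genes), from Rfx3 at 1.69 ± 0.06 to Spag17 at 7.24 ± 0.11 on the log2 scale, with a median of 5.69. Against GABAergic neurons of the first gates 35 of 35 passed (33.7% of all genes), from Rfx3 at 1.42 ± 0.062 and Drc1 at 2.52 ± 0.10 to Cfap299 at 8.26 ± 0.19, with a median of 4.63.

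Other cilium genes, from 7 lists, were compared in the same fit of ependymal nuclei with astrocytes, with the same limit from the gate. Of 15 further dynein arm and docking genes, 14 were higher and 1 (Dnah8) did not pass, with Armc4, a docking protein, at 5.97 ± 0.12 and Wdr63 at 5.84 ± 0.12 on the log2 scale. Of 10 tested dynein assembly factors, 9 were higher, led by Lrrc6 (5.96 ± 0.11) and Dnaaf1 (5.42 ± 0.25), and Spag1 did not pass. All 21 further spoke, nexin link and central pair genes were higher, led by Iqca (6.34 ± 0.11) and the adenylate kinase Ak7 (6.21 ± 0.093). All 17 tested doublet wall and tektin genes were higher, led by Tekt3 (7.34 ± 0.32) and Cfap161 (5.41 ± 0.15). The list medians were 3.32, 2.81, 3.88 and 3.59 in this order.

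In this comparison 34.9% of all genes tested were higher and 35.1% lower in ependymal nuclei, against which the remaining 3 lists are given. Of 14 tested regulators of multiciliation, 7 were higher, led by the p53 family member Trp73 (6.26 ± 0.17) and Myb (6.22 ± 0.17), and 7 were lower (E2f4, E2f5, Rfx4, Rfx5, Rfx7, Plk4 and Cep152). Of 31 genes of intraflagellar transport and the BBSome, which serve cilia of all kinds, 27 were higher with a list median of 1.09, led by Ift88 (2.85 ± 0.070) and Ift22 (2.08 ± 0.12), and Bbs2 was lower. Of 10 tested genes of the primary cilium, 2 were higher and 3 lower, among them the Hedgehog receptor Ptch1 (-2.60 ± 0.072) and the Hedgehog-regulated factor Gli3 (-2.60 ± 0.083). The lower genes were named after their values were seen.

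Outside ependymal nuclei most of the 36 genes were detected at a low fraction of their ependymal level. To describe it, the CPM of each gene in a class was divided by its CPM in the ependymal nuclei of the same library, and the median over the 35 genes other than Dnah12 was taken as the free RNA line of that class and library. RNA released from ependymal cells would carry its genes in 1 ratio into every droplet. Because the line is the median of these same genes, part of them lie near it by construction. Free RNA, low expression and ependymal or mixed nuclei within a class cannot be told apart there. Thinned to 2000 UMIs, single nuclei held up to 26 of the 35 genes in astrocytes and up to 22 in oligodendrocytes. The 430 nuclei with 3 to 4 Dnah12 UMIs, outside the ependymal gate, held a median of 14 to 24 unthinned, depending on the library. The part of such nuclei in the line was not tested. The median line was 1.59% (1.19 to 2.17% over libraries) in oligodendrocytes, 2.51% (2.14 to 3.20%) in astrocytes, 2.11% (1.23 to 2.23%) in microglia, 2.15% (1.24 to 2.83%) in endothelial nuclei, 1.91% (0.834 to 2.33%) in mural nuclei, 0.949% (0.584 to 1.75%) in OPCs, 2.29% (2.20 to 2.85%) in GABAergic neurons and 0.855% (0.678 to 1.40%) in glutamatergic neurons. Within 2-fold of the line lay 19 genes in oligodendrocytes and in OPCs, 17 in astrocytes and in microglia, 16 in endothelial and 15 in mural nuclei, but only 9 in GABAergic and 7 in glutamatergic neurons. The line is a median and not a floor. By the median over libraries, the lowest gene stood at 0.218% of its ependymal level in GABAergic neurons and 0.279% in OPCs. It stood at 0.485% in oligodendrocytes and 0.668% in astrocytes. How far the line lies above free RNA was not tested, and a place near it does not mark a gene as free RNA. A gene was called above the line where it exceeded 4 times the line in 6 of 6 libraries with 10 or more UMIs.

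**Figure D4:**
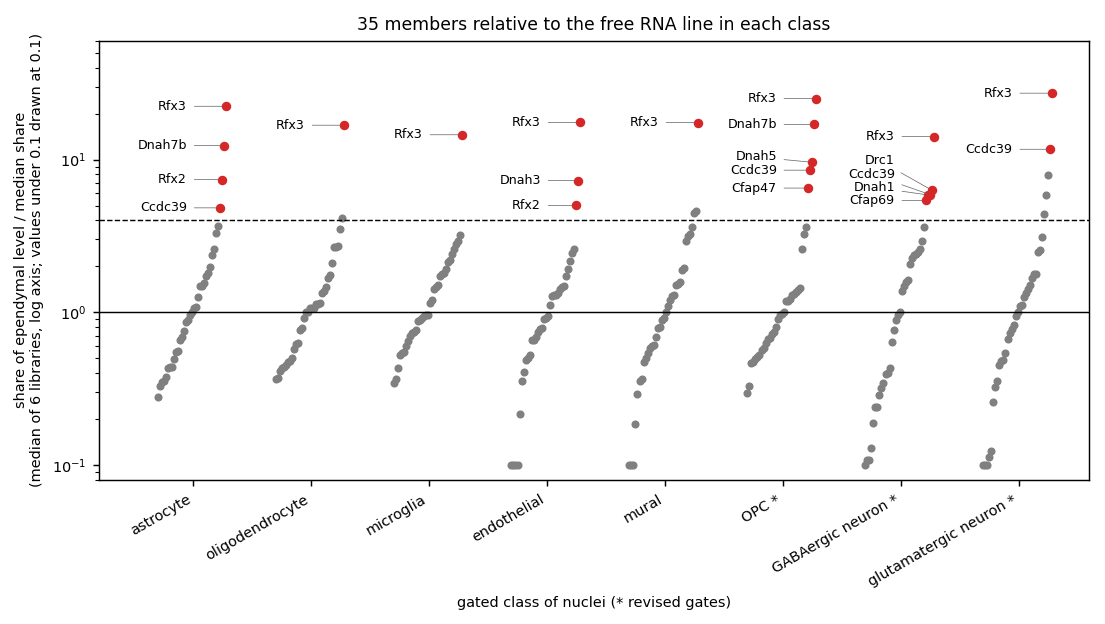
Level of each of the 35 genes in 8 classes outside the ependyma, as the median over 6 libraries of its share of the ependymal level divided by the free RNA line of the class (log axis); the dashed line marks 4 times the line and red points are genes called above it. Values under 0.1 are drawn at 0.1. Rfx3 is red in every class, most other points lie below the dashed line, and grey points above it did not pass in all 6 libraries or had too few UMIs.

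Rfx3 was above the line in every class examined. Its level was 552 to 597 CPM in astrocytes (57.9% of the ependymal level, 22.3 times the line), 255 to 299 in oligodendrocytes (16.8 times), 286 to 363 in microglia (14.5 times), 291 to 375 in endothelial nuclei (17.5 times), 284 to 396 in mural nuclei (17.5 times), 233 to 285 in OPCs (25.1 times), 328 to 340 in GABAergic (14.1 times) and 177 to 560 in glutamatergic neurons (27.2 times). Astrocyte libraries all lay above those of the other glia, of GABAergic neurons and of the vessel classes. Among oligodendrocytes, microglia, endothelial nuclei, mural nuclei and OPCs, neighbouring ranges overlapped.

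Astrocytes had 4 genes above the line. Besides Rfx3 these were Dnah7b (197, 210 and 216 CPM, 33.3% of the ependymal level, 12.4 times the line), Rfx2 (37, 40.1 and 43.5 CPM, 7.41 times) and Ccdc39 (41.3, 44.7 and 47.8 CPM, 4.83 times). Spag16, at 167 to 227 CPM, exceeded 4 times the line in 2 of 6 libraries and was not called. Foxj1 was at 1.49 to 2.68 CPM in astrocytes and 1.68 to 3.59 CPM in oligodendrocytes.

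Dnah7b and Dnah7a, inner arm heavy chains encoded on chromosome 1, parted ways in astrocytes. Dnah7a measured 8.01, 10.7 and 13.1 CPM there, while its ependymal level of 410 to 472 CPM was within a factor of 2 of that of Dnah7b. The ependymal minus astrocyte difference was 5.26 ± 0.094 for Dnah7a and 1.48 ± 0.062 for Dnah7b on the log2 scale. Of the 90-base windows of Dnah7b transcripts, 9.1% also occur in Dnah7a and 12.4% in Dnah7c, and 14.4% of those of Dnah7a occur in Dnah7b, so the split of reads among these copies is uncertain. Their RefSeq promoters are shown because the genes differ in astrocytes while both hold the X-box arm GTTGCC, in capitals, at -163 in Dnah7b and -200 in Dnah7a:
Dnah7b, chr1:46066603-46066902, plus strand: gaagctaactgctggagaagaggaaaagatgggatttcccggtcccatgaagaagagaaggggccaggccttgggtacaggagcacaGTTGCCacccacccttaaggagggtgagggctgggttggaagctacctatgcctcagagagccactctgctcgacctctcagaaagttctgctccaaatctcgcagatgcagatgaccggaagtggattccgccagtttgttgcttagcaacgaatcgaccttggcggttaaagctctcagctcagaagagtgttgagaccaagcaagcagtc
Dnah7a, chr1:53706735-53707034, minus strand: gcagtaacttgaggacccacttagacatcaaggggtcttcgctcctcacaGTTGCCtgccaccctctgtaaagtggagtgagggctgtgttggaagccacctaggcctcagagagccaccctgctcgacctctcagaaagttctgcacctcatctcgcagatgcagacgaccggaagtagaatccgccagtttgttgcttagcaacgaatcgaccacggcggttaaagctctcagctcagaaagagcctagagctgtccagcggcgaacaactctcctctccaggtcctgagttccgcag
Aligned over 337 columns with 74 gaps, the promoters were identical at 227 (67.4%). Neither matched a complete X-box form, and GTTGCC alone was present in 12.5% of all promoters. Both also hold gttgcttagcaac, in lower case between GTTGCC and the gene start, which did not match the searched forms.

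Tested against oligodendrocytes, astrocytes had 23 of 35 genes higher, 1 lower and 11 that did not pass, where 33% of all genes were higher and 33.4% lower, with a median log2 difference of 0.72 (-0.03 over all genes). The largest differences were Dnah7b at 2.91 ± 0.075 (edgeR adjusted p = 1.03e-48), with 22.9 to 29.8 CPM in oligodendrocytes, and Rfx2 at 2.68 ± 0.11 (edgeR adjusted p = 2.95e-35), with 4.17 to 7.38 CPM. Spag16 (2.02 ± 0.12), Cfap44 (1.67 ± 0.11) and Rfx3 (1.01 ± 0.059) followed, each higher in 6 of 6 libraries. Foxj1 was lower in astrocytes by 0.59 ± 0.25 (log2 -0.59, edgeR adjusted p = 0.0352), in 6 of 6 libraries, but no gene was lower when the library block was dropped or DESeq2 used. The free RNA line itself was higher in astrocytes than in oligodendrocytes, 2.51 against 1.59%, and its part in the smaller differences was not tested. The filter on low counts took all classes together. A gene as low as Foxj1 could thus enter the tests between other classes through its ependymal level alone.

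GABAergic neurons had 5 genes above the line. Besides Rfx3 these were Drc1 (24.6, 25.9 and 30.3 CPM, 14.7% of the ependymal level, 6.3 times the line), Ccdc39 (44.2 to 48.3 CPM, 5.9 times), Dnah1 (18.1, 18.7 and 20.2 CPM, 5.87 times) and Cfap69 (80.5, 87.9 and 92.1 CPM, 5.4 times). With the gates chosen first, only Rfx3 and Drc1 were above it. Dnah9, at 87.1 to 104 CPM, exceeded 4 times the line in 1 library. In the other direction, Cfap299 stood at 5.06 to 11.3 CPM, Tmem212 at 1.41 to 3.84 and Foxj1 at 0.228 to 0.567 CPM.

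Against oligodendrocytes, GABAergic neurons of the first gates had 22 of 35 genes higher and 8 lower, where 32.2% of all genes were higher and 34.2% lower, and the revised gates gave 21 higher and 8 lower (37.3 and 39.9% of all genes). With the revised gates Dnah1 was higher by 2.41 ± 0.14 (edgeR adjusted p = 1.88e-27), Dnah9 by 2.18 ± 0.11, Drc1 by 1.93 ± 0.11 and Cfap69 by 1.61 ± 0.074 on the log2 scale, each in 6 of 6 libraries. Oligodendrocytes had 1.75 to 6.27 CPM of Dnah1 and 14.4 to 22.8 CPM of Dnah9, below every GABAergic library. Foxj1 (-2.64 ± 0.25), Tmem212 (-1.59 ± 0.24), Cfap299 (-1.42 ± 0.19), Rgs22 (-1.26 ± 0.16) and Wdr49 (-1.25 ± 0.18) were lower in the neurons, so that the 4 genes with no role stated were all on the lower side. In both classes the levels of these lower genes were a small part of the ependymal ones, and the part of free RNA in the differences was not tested. GABAergic nuclei had 12472 to 15958 median UMIs against 2870.5 to 4180 in oligodendrocytes.

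Astrocytes were also compared with GABAergic neurons of the first gates. Of the 35 genes, 16 were higher in astrocytes and 9 in neurons, where 36.7 and 30.9% of all genes were. Counts this near the shares over all genes are not read as a result. Dnah7b (2.15 ± 0.084, edgeR adjusted p = 1.17e-36), Rfx2 (2.07 ± 0.14) and Rgs22 (2.03 ± 0.22) were higher in astrocytes. Dnah1 (-2.53 ± 0.24, edgeR adjusted p = 3.37e-14) and Dnah9 (-1.78 ± 0.12, edgeR adjusted p = 1.14e-18) were higher in neurons, as were Rsph1, Drc1, Cfap69, Rsph4a, Ccdc40, Cfap54 and Cfap65. Ccdc39 did not pass (-0.02 ± 0.094, edgeR adjusted p = 0.882). The first gates kept GABAergic nuclei low in Lhfpl3, at 71.9 to 89.8 CPM against 760 to 821 CPM with the revised gates. With the revised gates 21 of the 35 genes were higher in astrocytes and 8 in neurons, where 6628 and 5841 of 15913 genes were. Dnah3 (0.51 ± 0.17, edgeR adjusted p = 0.00753) and Dnah5 (0.44 ± 0.096, edgeR adjusted p = 3.04e-05) then passed as higher in astrocytes.

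**Figure D5:**
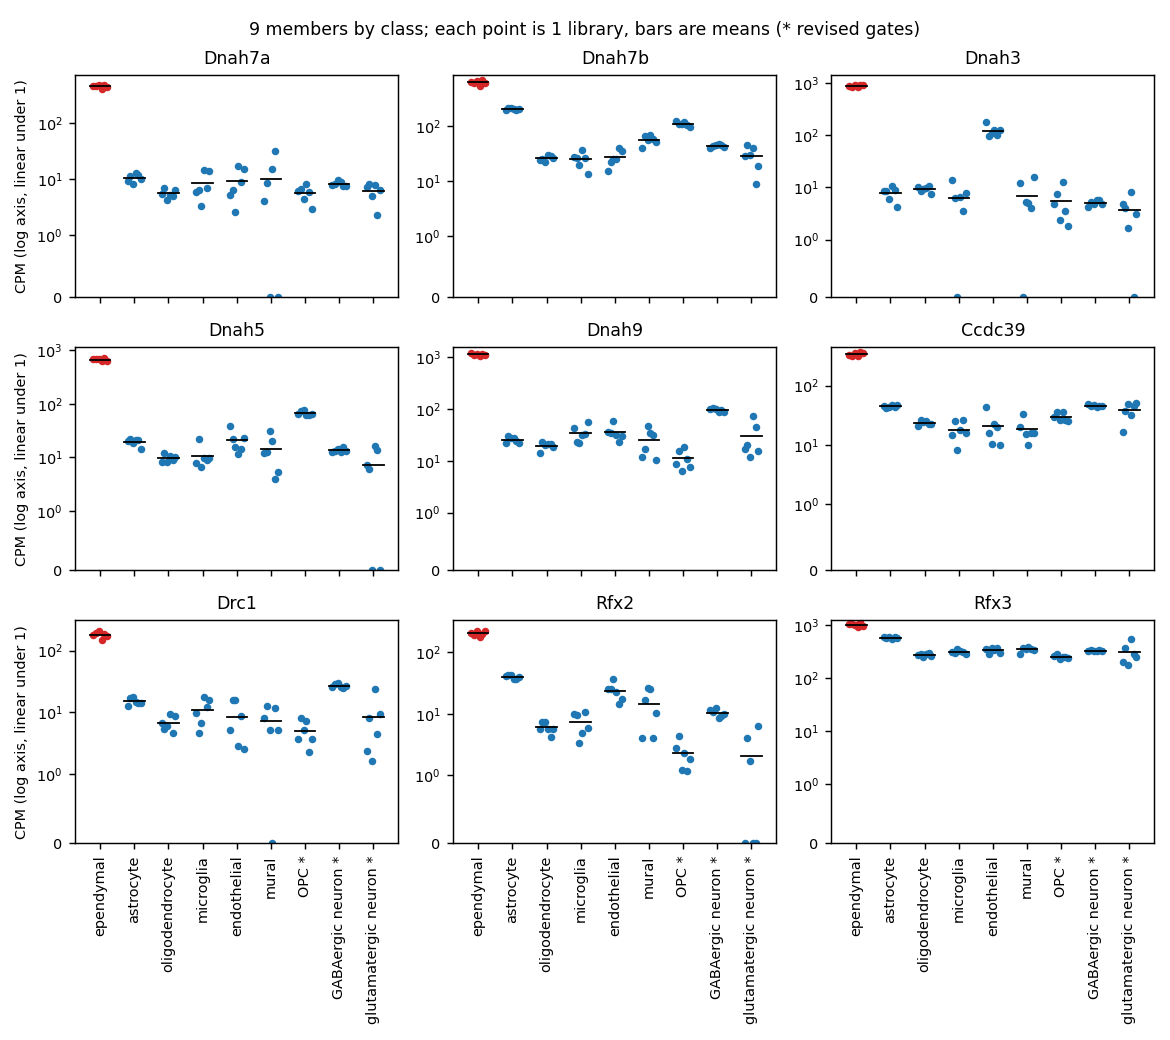
CPM (log axis, linear under 1) of 9 genes in ependymal, glial, vascular and neuronal classes, with 1 point per library and a bar at the mean. Dnah7b stands near 208 CPM in astrocytes while Dnah7a does not, Dnah5 is higher in OPCs than in oligodendrocytes, and so is Dnah3 in endothelial nuclei.

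OPCs, which are dividing precursors of oligodendrocytes, had 5 genes above the line. Dnah5 measured 61.1, 64.3 and 75.9 CPM (10% of the ependymal level, 9.61 times the line) against 8.16 to 12.2 CPM in oligodendrocytes, without overlap. Dnah7b measured 99.3, 113 and 125 CPM (17 times the line), and Cfap47 31.8, 35.1 and 49.9 CPM (6.51 times). Ccdc39 (25.4 to 36.1 CPM, 8.53 times) and Rfx3 completed the set. With the first gates Dnah7b, Rfx3 and Ccdc39 were above the line.

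Against oligodendrocytes the revised OPC nuclei had 6 genes higher and 17 lower, where 27.7% of all genes were higher and 31% lower. The higher genes were Dnah5 (2.82 ± 0.11, edgeR adjusted p = 8.29e-36), Dnah7b (2.27 ± 0.084, edgeR adjusted p = 7.31e-40), Dnah2 (1.0 ± 0.16), Cfap47 (0.93 ± 0.11), Dnah11 (0.78 ± 0.15) and Ccdc39 (0.28 ± 0.11). Foxj1 was lower (-2.03 ± 0.39), at 0 to 1.55 CPM. This level is near the floor, and Foxj1 could enter the test through its ependymal level alone. The part of free RNA in this difference was not tested. The first gates, whose OPC class held neurons, gave 17 higher and 8 lower (34.8 and 33.9% of all genes), and for Dnah9, Dnah1, Drc1 and Cfap69 the direction turned between the gates.

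In endothelial nuclei Dnah3, an inner arm gene, stood above the line. It measured 98.1, 116 and 179 CPM on 271 UMIs, 13% of the ependymal level and 7.29 times the line, against 7.39 to 10.8 CPM in oligodendrocytes, without overlap. The thinned share of nuclei with a Dnah3 UMI was 19.2% ± 4.5 in endothelial nuclei and 1.93% ± 0.34 in oligodendrocytes (SD, n = 6). Lyrm1, which lies opposite Dnah3 and overlaps it, was also higher there, at 51.6 to 75.9 CPM against 20.2 to 27.6 CPM in oligodendrocytes, and its part in the Dnah3 count was not tested. Rfx2 (14.6 to 36.4 CPM, 5.02 times the line) and Rfx3 were above the line as well. With the revised gates Dnah3 stood at 84.5 to 157 CPM and, like Rfx2, exceeded 4 times the line in 5 of 6 libraries, so that only Rfx3 was called. These levels have no test of their own.

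In microglia and mural nuclei Rfx3 alone was above it, and Dnah7b in mural nuclei (40 to 70.2 CPM) exceeded 4 times the line in 5 of 6 libraries. In the 188 glutamatergic nuclei, Ccdc39 (16.9 to 50.4 CPM, 11.7 times the line) joined Rfx3, and Foxj1 and Rsph4a had no UMI. Against oligodendrocytes, microglia had 5 of 35 genes higher and 3 lower (23.4 and 25.3% of all genes), with Cfap61 highest at 0.79 ± 0.24 (edgeR adjusted p = 0.00445) and Ccdc39 lowest at -0.78 ± 0.18 (edgeR adjusted p = 0.000138). Rfx3 was among the lower genes in the scaled fit (-0.18 ± 0.071, edgeR adjusted p = 0.03), although its CPM was higher in microglia in 6 of 6 libraries, so its direction depends on the scaling.

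Of the 36 genes, 19 overlap another annotated gene, and the sources used here do not state whether counting used strand. Ttc14, opposite Ccdc39, stood at 201 to 223 CPM in ependymal nuclei, 290 to 328 in astrocytes, 244 to 271 in oligodendrocytes and 211 to 233 in GABAergic neurons, above Ccdc39 in every one of the 3 latter classes. Gm35823, opposite Dnah1, stood at 11.8 to 15.2 CPM in GABAergic neurons, where Dnah1 was at 18.1 to 20.2 CPM, and at 40.9 to 56.9 CPM in ependymal nuclei. Of the other genes above the line, Drc1 overlaps Gm43755 on the same strand, which had 0.0485 to 0.538 CPM in GABAergic neurons, and Rfx3 overlaps Gm20407 on the opposite strand, which had 0.774 to 1.13 CPM there. Reads of a gene and its opposite partner cannot be told apart without strand, nor those shared with a partner on the same strand, so the Ccdc39, Dnah1, Dnah3, Drc1 and Rfx3 levels carry this limit.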

How the data were processed

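The authors deposited raw UMI counts per gene and barcode for 6 libraries, which the submitters' processing notes credit to Cell Ranger 3.1.0 with STAR. The matrix headers name version 5.0.0. The sources used here do not state the genome build or whether intron reads and strand were used.

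From these counts, barcodes with 500 or more genes were gated. Ependymal nuclei had 5 or more Dnah12 UMIs. Other classes had fewer, with 4 or more UMIs from 2 or more genes of their own panel and every other panel at most 1/4 of it. Revised gates left Lhfpl3 and St18 out of the OPC and oligodendrocyte panels and let the glutamatergic panel pass on 3 UMIs of 1 gene. Counts were summed per library and class with 10 or more nuclei. They were tested with edgeR 4.0.16 (TMM scaling, filterByExpr, robust quasi-likelihood, class plus library as a block because a library's classes come from 1 suspension) and Benjamini-Hochberg adjustment over all genes, at a threshold of 0.05. Alternatives, DESeq2 1.42.0 among them, are given at the end. On simulated astrocyte and oligodendrocyte counts of 13862 unchanged genes, 0.0794% were called. Of changed genes 80% were recovered at 1.5-fold, 96% at 2-fold and 100% at 4-fold. The simulation held only these classes, few changed genes and no library effect. In the data 5046 genes were higher and 5107 lower in astrocytes than oligodendrocytes, of 15284 tested, so these rates need not hold there.

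All 36 genes are named by role whatever their values. Values by library are given for genes above the free RNA line, the highest and lowest in ependymal nuclei and the transcription factors. Of other lists, the pair with the largest difference is named. The genes and lists were chosen with earlier results of these data known.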

Additional observations from a re-analysis of the deposited data

Results flagged for a closer look

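Among 51 sets of 6 library values screened for a library far from the others, where chance gives about 1 in 20, 5 stood out. Replicate 4 was far below the others in ependymal nuclei for Hydin (882 CPM, the nearest library at 1022), Cfap54 (1231 CPM, nearest 1416) and Cfap61 (811 CPM, nearest 952). In ependymal nuclei without mixed barcodes, replicate 4 stood at 1379 CPM for Hydin, 1906 for Cfap54 and 1251 for Cfap61, inside the range of the other libraries for each of these genes. Replicate 3 was far above the others for Rsph1 (122.8 CPM, nearest 101.7). Replicate 1 was far above the others for Dnah3 in endothelial nuclei (179.1 CPM, nearest 126.4).

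The 914 barcodes with fewer than 500 genes, which entered no comparison, held 1254 UMIs of the 35 genes other than Dnah12 among 569942 UMIs, or 2200 CPM, and 42 Dnah12 UMIs. All 36 genes had a UMI there. Across the 36 genes, their level in these barcodes had a Spearman correlation of 0.822 with that in ependymal nuclei, as a description over genes that share libraries and span.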

How the results depend on the processing

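In ependymal nuclei against astrocytes, oligodendrocytes and GABAergic neurons, 35 genes were higher under every alternative run, leaving out each library included, except that 34 were against astrocytes with the panel of 18 other genes as the ependymal gate. In the main setting 34.9, 38.2 and 33.7% of all genes were higher in this order. Of single genes, 2892 values kept their direction and side of the threshold, 38 lost and 28 gained significance. Without the library as a block, 35 genes were called higher in each ependymal comparison. In astrocytes against oligodendrocytes 24 were higher and 0 lower, where 4960 and 4972 of all 15284 genes tested were. The block thus changed no direction. Same-numbered sums come from 1 library.

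Thinning to 2000 UMIs left fewer counts to test. Of the 10341, it gave 3309, 2815 and 3512 genes lower in ependymal nuclei than in astrocytes, GABAergic neurons and oligodendrocytes. It gave 2882 higher and 3001 lower for GABAergic neurons against oligodendrocytes, 3390 and 3152 for OPCs against oligodendrocytes, and 3079 and 2625 for astrocytes against GABAergic neurons. Of the motile cilium genes it left 5 lower in GABAergic neurons and 10 higher in OPCs against oligodendrocytes. It left 2 higher in microglia, where 2557 of all 10341 genes were, and 10 higher and 5 lower in astrocytes against GABAergic neurons.

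The cause of the following changes was not tested. The 1 gene lower in astrocytes than oligodendrocytes became 3 without a filter on low counts or with 1000 or more genes per barcode. It became 4 with 3 or more Dnah12 UMIs or the panel gate, and 0 with 10 or more, DESeq2 or no block. Leaving out 1 library gave 0 to 4 (0 without replicate 1 or 2, 4 without replicate 4). Of all genes, 5759 of 26876 were lower without a filter, 5362 of 16326 with the panel gate and 4760 of 14840 with 10 or more Dnah12 UMIs. The 8 lower in GABAergic neurons became 5 to 8 leaving out 1 library (5 without replicate 2, where 4404 of all 15276 genes were lower). In microglia against oligodendrocytes, 5 higher and 3 lower became 1 lower with RLE scaling or DESeq2, and 3 higher and 5 lower without a filter or with the panel gate. They became 5 lower with 3 or more Dnah12 UMIs, 9 higher with 10 or more and 3 higher with 1000 or more genes. Leaving out 1 library gave 1 to 5 higher and 1 to 4 lower (1 higher without replicate 1, 2 without 5 or 6, 3 without 4, and 1 lower without replicate 2). Of all genes, 3423 of 14840 were higher in microglia with 10 or more Dnah12 UMIs, 3664 of 16326 with the panel gate and 3556 of 15203 with 1000 or more genes. Lower were 3275 of 15284 with RLE scaling and 4714 of 26876 without a filter. These counts of motile cilium genes are not read as a result.

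The revised gates, chosen after seeing the data, gave 6 genes higher and 17 lower in OPCs than oligodendrocytes, where 4409 and 4932 of all 15913 genes were. With mixed ependymal barcodes also left out they gave 6 and 15, where 4554 and 4555 of all 15689 genes were. Under these 2 settings the OPC difference turned to -0.46 and -0.42 for Drc1, -0.77 and -0.73 for Dnah1, -0.16 and -0.12 for Cfap69 and -0.91 and -0.88 for Dnah9. The microglia difference turned to 0.075 and 0.096 for Dnah7b and to 0.28 and 0.30 for Cfap69.

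The free RNA line of microglia was 3.13% with 10 or more Dnah12 UMIs. With the panel gate the line was 4.83% in astrocytes, 3.12% in oligodendrocytes, 3.81% in microglia and 6.71% in GABAergic neurons. With mixed barcodes left out it was 1.89, 1.16, 1.47 and 2.20% in this order, and after thinning 1.88, 0.984, 1.31 and 2.25%. It was 2.29% in GABAergic neurons with the revised gates, and 1.85% there, 2.08% in astrocytes and 1.20% in oligodendrocytes with mixed barcodes also left out. Of genes above the line, mural nuclei had 2 with 3 or more Dnah12 UMIs, with mixed barcodes left out or at 2 times the line, and 1 to 2 leaving out 1 library (2 without replicate 3). GABAergic neurons had 1 with 3 or more Dnah12 UMIs, the panel gate, thinning or 8 times the line, and 5 with either revised setting or 2 times the line. Either revised setting gave 5 in OPCs and 1 in endothelial nuclei. At 2 times the line there were 8 in astrocytes, 5 in oligodendrocytes, 8 in OPCs and 2 in microglia, and at 8 times 2 in astrocytes, 1 in OPCs and 1 in endothelial nuclei. The median share of nuclei with a UMI was 56.6% in ependymal nuclei and 0.838% in oligodendrocytes when thinned to 1000 UMIs, and 85.9 and 3.07% at 4000. Few nuclei per library stand behind the glutamatergic (11 to 48), mural (66 to 95) and endothelial (115 to 180) values.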
